A study of Mus musculus with 12 samples.

Results

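Bone morphogenetic proteins (BMPs) and growth and differentiation factors (GDFs) are secreted signalling proteins of the transforming growth factor beta superfamily, and 10 genes of this system were followed through the growth plate. They were 6 ligands (Bmp2, Bmp4, Bmp6, Bmp7, Gdf5 and Gdf10), 3 secreted antagonists (Nog, Grem1 and Chrd) and the membrane pseudoreceptor Bambi, taken by symbol from the probe annotation of the array. They were measured by 13 probes, of 40017 probes kept and 19352 genes with a kept probe in all. Bmp6, Bmp7 and Bambi had 2 probes each and the others had 1. BMP ligands bind serine/threonine kinase receptors that phosphorylate Smad proteins, and antagonists such as noggin hold ligands away from the receptors outside the cell. In growth plate cartilage, BMP signalling is known to take part in chondrocyte proliferation and in the passage to hypertrophy, in which cells enlarge and make the matrix that will be mineralised.

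The RNA came from femoral growth plates of 14-day-old Swiss White mice, with no genotype or treatment difference between the groups. Cryosections were microdissected into a proliferative, a prehypertrophic and a hypertrophic zone, with 4 samples of each (12 in all), and the RNA was amplified before labelling. Each of 6 two-colour arrays held samples of 2 zones, so that each pair of zones was compared directly on 2 arrays of opposite dye. Nothing in the labels tells if these samples are from different animals, so the p-values below measure only the spread between samples, which may be technical. The deposited table of log2 values carried sample names that went against the scanner files, since only 1 of 12 columns was closest to the scanner file of the sample it names. All values here come from the scanner files under their own names. Per sample, 92.6% to 96.2% of the non-control spots exceeded background clearly by the scanner software's flag, and median processed signals ran from 519.6 to 697.4. The correlation of levels was 0.949 to 0.972 within a zone and 0.876 to 0.962 across zones. The 7 markers of prehypertrophic and hypertrophic chondrocytes, such as Ihh and Col10a1, set the proliferative zone apart but separated the later zones less clearly. By the test described below, all 7 were higher in hypertrophic than in proliferative samples. Prehypertrophic samples exceeded proliferative samples in 6 of them, and 1 did not pass the test. Between the 2 later zones, 2 markers were higher in the hypertrophic samples, 1 was lower and 4 did not pass. The signals of the 7 markers were summed in multiples of each sample's 75th percentile. This sum was 18.2 to 36.6 in the proliferative samples, 166 to 229 in the prehypertrophic samples and 252 to 344 in the hypertrophic samples. Ibsp, one of these markers, was saturated in all 4 hypertrophic samples, so a sum that holds saturated spots understates the high samples. Of the general chondrocyte markers, Col2a1 was saturated in 4, 3 and 2 samples of the 3 zones and Acan in 2, 2 and 4, and their sum is not given for that reason. The hypertrophic samples also held markers of other cells. The sum over 5 leukocyte and marrow markers was 4.44 to 15.4, 5.32 to 16.8 and 204 to 280 in the 3 zones. That over 4 markers of proliferating cells was 36.5 to 44.6, 2.96 to 4.26 and 47.9 to 52.7, a sum to which Mki67 gave the most. Between the outer zones, by the brightest probe of each gene, 2 of these 4 were higher (Mki67 by 0.48 and Top2a by 0.19 on the log2 scale) and 2 lower (Aurkb at -1.45 and Cdk1 at -1.10). Another Mki67 probe gave 0.73 and passed the test. Other Top2a probes gave -0.32 and -0.12 and did not pass. Another Cdk1 probe gave 0.35 and passed, so the direction of Cdk1 is unsettled.

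The largest movements among the members were falls of Gdf10 and Bmp7 and rises of Bmp6, Bambi and Bmp2 from the proliferative to the hypertrophic zone. Gdf5 rose and Chrd fell by less than 2-fold, and Bmp4, Nog and Grem1 passed the test in no comparison. Changes are log2 differences with standard error (SE) from limma's fit to the 6 array ratios, with a term for dye, and a gene was called at a Benjamini-Hochberg adjusted p under 0.05 over all 39906 tested probes. Each gene was counted by its brightest probe. Levels of single samples keep differences between arrays that the ratios remove, so gaps between zone means of levels need not match the fitted changes in size or sign. From the proliferative to the hypertrophic zone 7 of 10 members were called (4 higher, 3 lower), where 62.1% of all genes were called, 30.4% higher and 31.7% lower. From the proliferative to the prehypertrophic zone, the first step, 5 members were called (3 higher, 2 lower), where 48.8% of all genes were called, 24.3% higher and 24.5% lower. From the prehypertrophic to the hypertrophic zone, the second step, 7 were called (4 higher, 3 lower), where 61.2% of all genes were called, 30.7% higher and 30.6% lower. These counts of members were close to the share of all genes. By size, 5 members were called and changed at least 2-fold between the outer zones, where 16.3% of all genes were, and 5 in the first step, where 8.6% were. The first-step count includes Bmp2, which lay at the cut, at 1.01 and at 0.94 to 1.05 over the arrays left out. It also includes Bambi, whose other probe gave 0.10 in that step and was not called. In the second step 1 member was called and changed at least 2-fold, where 11.5% of all genes were. The median size of the log2 change between the outer zones was 1.07 over the members and 0.314 over all genes. The split of all calls depended on the scaling. In the second step 10793 probes were higher and 10572 lower after loess, but 9046 higher and 14760 lower when each sample's 75th percentile was subtracted instead. That setting moved the median of all probes in that step from -0.02 to -0.13. Between the outer zones the split went from 11003 higher and 11104 lower to 9831 and 13608. In the first step it went from 8513 higher and 8377 lower to 10023 and 7726. No called change of a member turned its direction or lost its call under that scaling. In bulk tissue, fewer cells of a type and less RNA per cell cannot be told apart, and this holds for every change below.

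**Figure D1:**
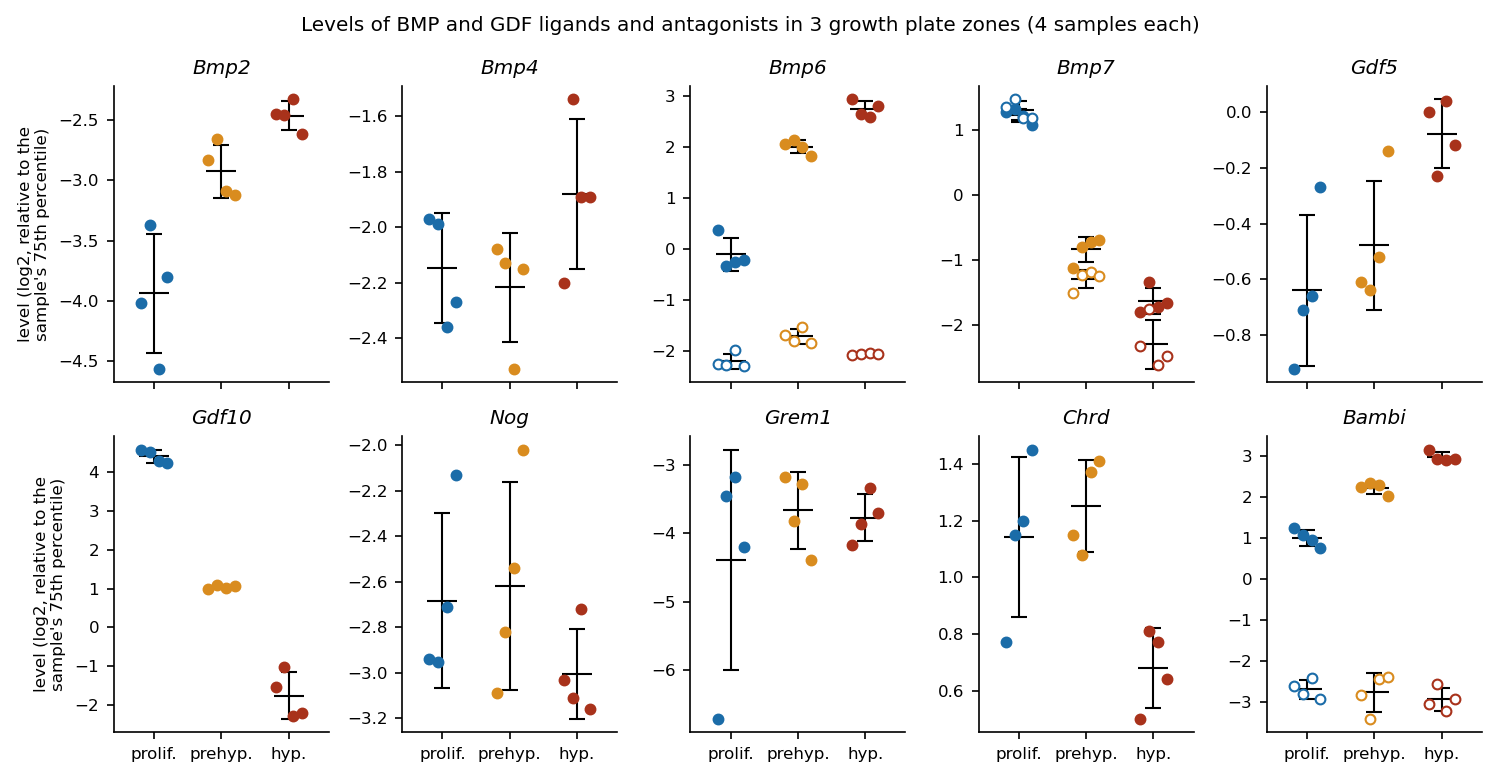
Level of each member in the 12 samples by zone (log2 of the signal relative to the sample's 75th percentile, with a separate vertical scale in each panel). Filled points are the brightest probe of the gene, open points the other probe of Bmp6, Bmp7 and Bambi, and black bars the mean ± SD of 4 samples. Gdf10 falls from 4.25 to 4.58 in the proliferative samples to -2.28 to -1.01 in the hypertrophic samples, while Nog and Grem1 overlap in all zones.

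Gdf10, a ligand also known as BMP-3b, fell the most. Its processed signal in proliferative replicates 1 to 4 was 46590, 38350, 44370 and 43450. It was 3368, 3730, 4425 and 4591 in the prehypertrophic samples, and 710.8, 872, 363.9 and 393.5 in the hypertrophic samples. The 3 zones did not overlap, and every hypertrophic signal was still called well above background. The level was 4.41 ± 0.16 (SD, n = 4) in the proliferative zone, 1.04 ± 0.05 (n = 4) in the prehypertrophic zone and -1.76 ± 0.60 (n = 4) in the hypertrophic zone. The fall between the outer zones was -5.98 ± 0.19 (SE), or 63-fold (limma, adjusted p = 6.1e-05), with a 95% interval of -6.51 to -5.45. Among 19321 tested genes this was rank 2 from the lowest. The fall was divided between both steps, with -3.03 ± 0.19 in the first (adjusted p = 0.000611) and -2.95 ± 0.19 in the second (adjusted p = 0.000536). The 2 arrays that compared the outer zones directly gave a mean of -5.73, and the sum of the 2 steps through the prehypertrophic arrays gave -6.46, so the size is known less closely than its direction. The hypertrophic samples on the 2 arrays shared with the proliferative zone (-1.53 and -1.01) were both higher than those on the arrays shared with the prehypertrophic zone (-2.28 and -2.21).

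Bmp7, a ligand known from proliferating chondrocytes, fell on both of its probes. The level on the brightest probe was 1.29, 1.33, 1.22 and 1.09 in proliferative replicates 1 to 4. It was -1.12, -0.80, -0.73 and -0.70 in the prehypertrophic samples and -1.80, -1.35, -1.73 and -1.66 in the hypertrophic samples. Every proliferative sample lay above every prehypertrophic sample, and each of those above every hypertrophic sample. The change between the outer zones was -2.71 ± 0.11, or 6.55-fold lower (adjusted p = 0.000109). It consisted of -1.99 ± 0.11 in the first step (adjusted p = 0.00043) and -0.72 ± 0.11 in the second (adjusted p = 0.00723). The second step lost its call without array 4, at -0.66 with an adjusted p of 0.0518. The other Bmp7 probe gave -3.44 ± 0.10 between the outer zones, -2.41 ± 0.10 in the first step and -1.03 ± 0.10 in the second, all called. Both probes thus gave the same direction in each step, with larger falls on the second probe.

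Bmp6, a ligand known as a product of hypertrophic chondrocytes, rose the most. The level on its brightest probe was 0.37, -0.33, -0.26 and -0.21 in the proliferative samples, 2.05, 2.13, 2.00 and 1.83 in the prehypertrophic samples and 2.93, 2.64, 2.59 and 2.80 in the hypertrophic samples. The zones did not overlap, and proliferative replicate 1 was the highest of its zone. The rise between the outer zones was 2.84 ± 0.09, or 7.17-fold (adjusted p = 6.51e-05), of which 2.13 ± 0.09 fell in the first step (adjusted p = 0.00024) and 0.71 ± 0.09 in the second (adjusted p = 0.00443). The other Bmp6 probe, which was dimmer, did not show this size. Its level was -2.30 to -1.98, -1.85 to -1.53 and -2.08 to -2.04 in the 3 zones. It rose by 0.44 ± 0.03 in the first step (adjusted p = 0.000963) but fell by 0.18 in the second (SE 0.03, adjusted p = 0.0113). The second-step call was lost without array 3 or 4 (adjusted p = 0.051 and 0.0644) and with each pair of arrays averaged (adjusted p = 0.0874). Between the outer zones this probe rose by 0.26 ± 0.03 (adjusted p = 0.00367), a call also lost with each pair averaged (adjusted p = 0.0514). The second step of Bmp6 therefore had opposite directions on the 2 probes. With the probes of a gene averaged, the changes of Bmp6 were 1.55 between the outer zones, 1.28 in the first step and 0.27 in the second.

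Sequence upstream of these genes is shown for Gdf10 and Bmp6, the members with the largest fall and the largest rise. Each line gives 300 bases from RefSeq (mouse build GRCm38.p6), from 250 before to 50 after the annotated gene start, read 5′ to 3′ on the gene's strand. The Gdf10 window is chr14:33923337-33923636 and that of Bmp6 is chr13:38345466-38345765, both on the plus strand. Capitals mark matches to GGGCGG, the GC box core, or to GGCGCC, on either strand (a reverse match to GGGCGG reads CCGCCC).
Gdf10: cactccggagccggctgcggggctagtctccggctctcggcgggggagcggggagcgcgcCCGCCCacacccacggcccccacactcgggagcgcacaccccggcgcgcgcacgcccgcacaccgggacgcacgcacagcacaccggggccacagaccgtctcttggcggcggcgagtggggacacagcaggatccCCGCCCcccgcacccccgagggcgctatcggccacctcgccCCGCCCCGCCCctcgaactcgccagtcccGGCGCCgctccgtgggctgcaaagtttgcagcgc
Bmp6: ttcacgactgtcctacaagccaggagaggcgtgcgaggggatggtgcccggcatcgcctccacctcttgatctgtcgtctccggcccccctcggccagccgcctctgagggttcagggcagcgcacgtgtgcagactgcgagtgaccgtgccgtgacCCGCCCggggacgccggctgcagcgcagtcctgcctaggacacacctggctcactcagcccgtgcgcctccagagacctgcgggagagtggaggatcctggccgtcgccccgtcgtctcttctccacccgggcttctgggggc
The Gdf10 window held 4 matches to GGGCGG, all on the reverse strand, and 1 to GGCGCC. That of Bmp6 held 1 match to GGGCGG. Among 27025 promoter windows of the same length, 35.9% held GGGCGG and 12% held GGCGCC. GC made up 77.3% of the Gdf10 window and 69.3% of that of Bmp6, against a median of 52.7% over all windows. TATAAA (in 14.2% of windows), TGTGGT (16.9%) and AACAAT (10.9%) were searched for on both strands and matched neither window. A match describes these letters and does not show that a factor binds there. Windows for Bmp4, Grem1 and Chrd were also available, and each held at least 1 match to GGGCGG and none to the last 3 motifs.

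Bmp2, a ligand that is known to promote cartilage and bone formation, rose with each zone. Its processed signal was 120.5, 161.3, 95.33 and 163 in the proliferative samples, 238.9, 275.4, 255.6 and 256.4 in the prehypertrophic samples and 371.1, 320.1, 349.8 and 295.9 in the hypertrophic samples. The zones did not overlap, although the proliferative levels spread more (SD 0.50 on the log2 scale) than the hypertrophic levels (SD 0.12). The rise between the outer zones was 1.35 ± 0.06, or 2.56-fold (adjusted p = 0.000116). It was 1.01 ± 0.06 in the first step (adjusted p = 0.00044) and 0.34 ± 0.06 in the second (adjusted p = 0.00896). The paired arrays of opposite dye differed for this probe, with ratios of 1.66 and 1.00 between the outer zones, 1.43 and 0.64 in the first step and 0.59 and 0.14 in the second. Without the dye term the second step was 0.34 with an adjusted p of 0.234, and with the 75th percentile subtracted it was 0.22 and still called.

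Gdf5, a ligand best known from joint formation, had its rise in the second step. The level was -0.92, -0.71, -0.66 and -0.27 in the proliferative samples, -0.61, -0.64, -0.52 and -0.14 in the prehypertrophic samples and 0.00, -0.23, 0.04 and -0.12 in the hypertrophic samples. The first 2 zones overlapped, the hypertrophic samples lay above all proliferative samples, and prehypertrophic replicate 4 lay within the hypertrophic range. The change was 0.10 ± 0.07 in the first step (adjusted p = 0.316, 95% interval -0.08 to 0.28), 0.69 ± 0.07 in the second (adjusted p = 0.00169) and 0.79 ± 0.07, or 1.72-fold, between the outer zones (adjusted p = 0.000948). Array 6 held the highest sample of both the proliferative and the prehypertrophic zone for Gdf5, and the same was seen for Nog and Chrd below.

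Bmp4, the close relative of Bmp2, passed the test in no comparison. Its processed signal was 422.1 to 500.4 in the proliferative zone, 383.5 to 499.1 in the prehypertrophic zone and 441 to 603.5 in the hypertrophic zone, and all 3 ranges overlapped. The change between the outer zones was 0.11 ± 0.10 (adjusted p = 0.42), with a 95% interval of -0.20 to 0.43. The second step was 0.24 ± 0.10 (adjusted p = 0.126). One of the 6 ratios, that of array 2, was left out of this fit because the spot carried an outlier flag. In a fit to the 12 separate channels the second step of Bmp4 was called, at 0.25 with an adjusted p of 0.0172. With the replicate number as a block that fit gave 0.28 and an adjusted p of 0.16, and the call was not made.

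**Figure D2:**
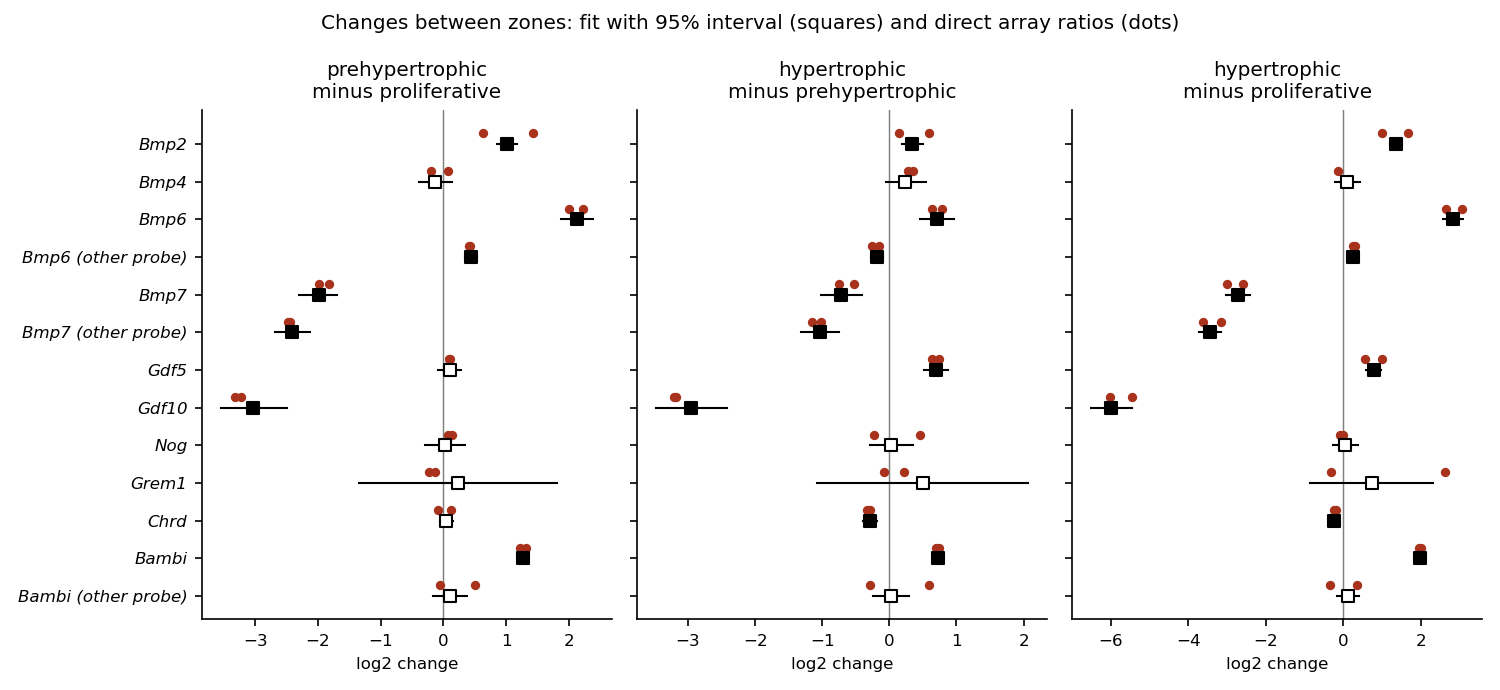
Log2 change of the 13 member probes in the 3 comparisons. Squares are the fitted changes with 95% intervals, filled where the adjusted p is under 0.05, and red dots are the direct ratios of the arrays that compared those 2 zones. Gdf10 stands at -5.98 and Bmp6 at 2.84 between the outer zones, and the wide intervals of Grem1 come with 1 array ratio at 2.63.

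Among the antagonists, Nog encodes noggin, which binds BMP ligands and blocks both of their receptor contacts. Its level was -2.94, -2.95, -2.71 and -2.13 in the proliferative samples, -3.09, -2.82, -2.54 and -2.02 in the prehypertrophic samples and -3.03, -3.11, -2.72 and -3.16 in the hypertrophic samples. All zones overlapped. The change was 0.05 ± 0.12 between the outer zones (adjusted p = 0.748, 95% interval -0.27 to 0.37), 0.02 in the first step and 0.03 in the second (adjusted p = 0.906 and 0.859). The sign of the second step was not settled: without array 3 Nog stood at -0.17 with an adjusted p of 0.0447, and with the 75th percentile subtracted at -0.10 with an adjusted p of 0.546.

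Grem1 encodes gremlin, which binds BMP2, BMP4 and BMP7 in other tissues. Its processed signal was 17.79, 150.4, 248.2 and 123.7 in the proliferative samples, 105.5 to 225.1 in the prehypertrophic samples and 117.8 to 173.4 in the hypertrophic samples. Proliferative replicate 1, on array 1, was the only sample in which a member's probe was not well above background. The change between the outer zones was 0.73 ± 0.58 (adjusted p = 0.345), with a 95% interval of -0.85 to 2.31. Without array 1 it was -0.23 (adjusted p = 0.2), so that this array set the sign. Without array 1 the counts of called members in the 3 comparisons were still 7, 5 and 7.

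Chrd encodes chordin, which holds BMP ligands outside the cell until it is cleaved. The level was 0.77, 1.15, 1.20 and 1.45 in the proliferative samples, 1.15, 1.08, 1.37 and 1.41 in the prehypertrophic samples and 0.50, 0.81, 0.77 and 0.64 in the hypertrophic samples. The hypertrophic samples lay below all prehypertrophic samples, while proliferative replicate 1 lay within the hypertrophic range. Chrd differed by 0.05 ± 0.04 in the first step (adjusted p = 0.415) and fell in the second, at -0.29 ± 0.04 or 1.22-fold lower (adjusted p = 0.00482). Its mean level in the prehypertrophic and hypertrophic zones was 1.25 and 0.68, further apart than the fitted change. Between the outer zones the change was -0.24 ± 0.04 (adjusted p = 0.00785), a call that was lost when the 2 arrays of each zone pair were averaged (adjusted p = 0.0591).

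Bambi encodes a membrane protein that resembles the receptors of this family but lacks the kinase domain, and that dampens their signalling. Its brightest probe was printed 10 times on each array and the spots were averaged. The processed signal was 4594, 3507, 4370 and 3887 in the proliferative samples, 7983, 8668, 10820 and 8910 in the prehypertrophic samples and 18500, 13560, 13600 and 14310 in the hypertrophic samples. The zones did not overlap. The rise was 1.99 ± 0.03, or 3.97-fold, between the outer zones (adjusted p = 2.78e-05), 1.27 ± 0.03 in the first step (adjusted p = 7.44e-05) and 0.72 ± 0.03 in the second (adjusted p = 0.000135). The array ratios were close, at 2.01 and 1.96 between the outer zones, 1.32 and 1.22 in the first step and 0.74 and 0.70 in the second. The other Bambi probe was dim, with signals of 162.4 to 425.3, and its change of 0.13 ± 0.10 between the outer zones was not called (adjusted p = 0.343). The 2 probes of Bambi thus disagreed, and their average gave 1.06 between the outer zones, 0.68 in the first step and 0.37 in the second.

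The difference between the second and the first step was tested in the same fit, a contrast chosen after the values above were seen. It was called for 6 of 10 members, where 53.6% of all genes were called. For Bmp6, Bambi and Bmp2 the rise was smaller in the second step, by -1.41 ± 0.16 (adjusted p = 0.00358), -0.55 ± 0.05 (adjusted p = 0.00147) and -0.67 ± 0.10 (adjusted p = 0.00744). For Bmp7 the fall was smaller in the second step, by 1.27 ± 0.19 (adjusted p = 0.00803). Gdf5 (0.59 ± 0.12, adjusted p = 0.0172) and Chrd (-0.33 ± 0.07, adjusted p = 0.0191) moved more in the second step. The calls of both were lost without array 3, 4 or 5, with adjusted p of 0.0602, 0.0847 and 0.0815 for Gdf5 and 0.0706, 0.0826 and 0.101 for Chrd. Without array 4 or 5 the count of members called was 4. That of Bmp2 was lost without the dye term (adjusted p = 0.209), and that of Bambi with its probes averaged (adjusted p = 0.0685). For Gdf10 the difference between the steps was 0.07 ± 0.34 (adjusted p = 0.878), with a 95% interval of -0.84 to 0.99. The outer-zone and step comparisons share samples and are given side by side for that reason.

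**Figure D3:**
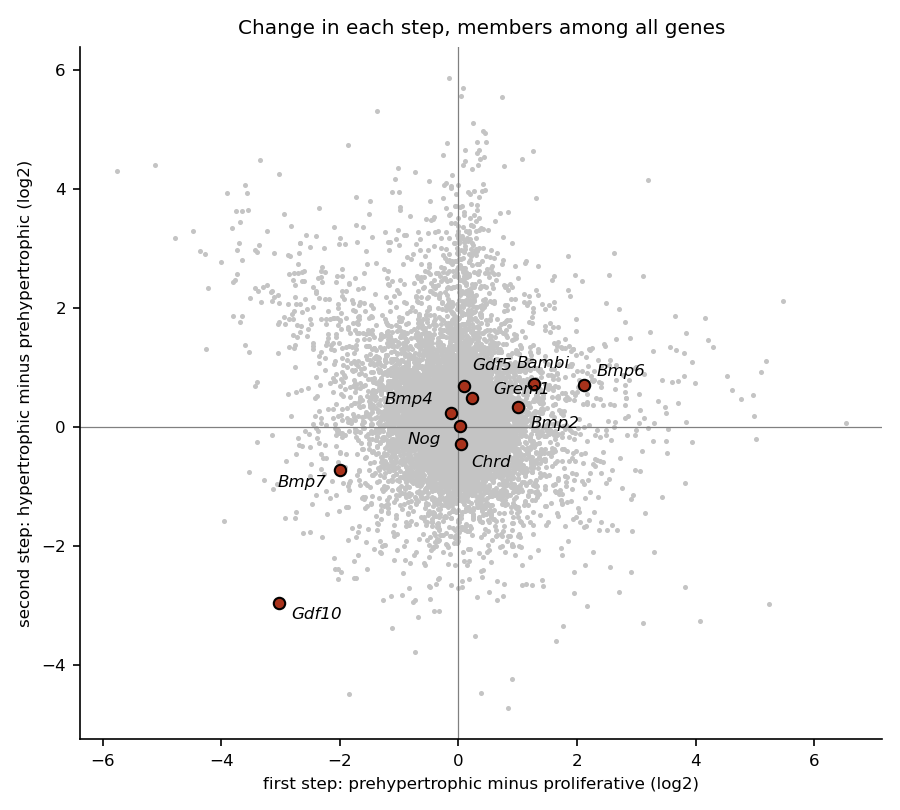
Log2 change of each gene in the first step (horizontal axis) and in the second step (vertical axis), by its brightest probe. Grey points are all genes with a change in both steps and red points the 10 members. Gdf10 (-3.03, -2.95) and Bmp7 (-1.99, -0.72) lie at the lower left, Bmp6 (2.13, 0.71), Bambi (1.27, 0.72) and Bmp2 (1.01, 0.34) at the right.

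For the 5 members whose zone means spanned at least 1 on the log2 scale, the genes with the most similar levels over the 12 samples were listed, each gene centred on its own mean. Among 19351 other genes, the smallest root mean square difference from Gdf10 was that of Ntrk2 (0.54), followed by Clec11a (0.64). Bmp7 was closest to Unc5c (0.12) and Xlr3c (0.13). The closest genes to Bmp6 were Auh (0.13) and Dusp16 (0.14). Bmp2 was nearest to Klhl31 (0.16) and Insig1 (0.19). Bambi was matched most closely by Ctsl and Piezo1 (both 0.06). The log2 changes in the first and second step were -3.95 and -1.58 for Ntrk2 and -1.98 and -2.43 for Clec11a.

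Markers of leukocytes and marrow, endothelium, erythroid cells and osteoclasts moved mainly in the second step. From the prehypertrophic to the hypertrophic zone all 5 leukocyte and marrow markers, 5 of 6 endothelial markers, 2 of 3 erythroid markers and 3 of 4 osteoclast markers were higher. The other osteoclast marker was lower, and the other endothelial marker and the other erythroid marker were not called. The sum over the endothelial markers was 2.18 to 2.83, 2.63 to 3.24 and 9.36 to 11.3 in the proliferative, prehypertrophic and hypertrophic samples. Over the erythroid markers it was 15.3 to 79.2, 13.5 to 102 and 104 to 173, and over the osteoclast markers 4.89 to 5.82, 5.11 to 6.64 and 19.5 to 22.5. The sum over 5 osteoblast markers was 75.9 to 105, 33.5 to 41.5 and 126 to 197. These markers did not all move together, with 1 higher and 3 lower in the first step and 3 higher and 2 lower in the second. Between the outer zones 4 of them were higher and 1 was lower. Each marker of these lists was well above background in at least 1 sample of every zone. In the first step 2 leukocyte, 1 endothelial, 0 erythroid and 1 osteoclast markers were higher, and 1 endothelial and 1 osteoclast marker were lower. The changes of Gdf10, Bmp7, Bmp6, Bambi and Bmp2 in that step were -3.03, -1.99, 2.13, 1.27 and 1.01. The part of these cells in the first-step changes, or in the second-step changes of Gdf5, Chrd and the other members, was not tested.

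The remaining BMP and GDF ligands varied without a common direction. Of 15 listed, 13 were tested, and 3 were higher and 4 lower between the outer zones, with a median change of -0.12 where that of all genes was -0.0304. That was 53.8% called, where 62.1% of all genes were. Bmp8a rose the most, by 4.84 ± 0.11 (adjusted p = 3.32e-05), with 3.23 in the first step and 1.60 in the second. Its near-identical neighbour Bmp8b stood at -1.13 ± 0.55 (adjusted p = 0.154), and because a probe may bind both transcripts the pair is uncertain. Bmp8b was well above background in 4, 4 and 2 samples of the 3 zones. Gdf9, a ligand known from the ovary, rose by 0.73 ± 0.04 (adjusted p = 0.000201), at low mean levels of -3.84, -3.57 and -3.50 in the 3 zones. Bmp5 was lower on its brightest probe (-1.39 ± 0.06, adjusted p = 9.76e-05), while its other 2 probes gave 0.18 and -0.65 and were not called. Gdf7 fell by 0.72 (adjusted p = 0.000801), and Gdf11 by 0.50 in the second step (adjusted p = 0.00159). Bmp15 differed in the first step by 0.34 (adjusted p = 0.0125). In the first step 3 ligands were higher and 3 lower, a total of 6 (46.2%, where 48.8% of all genes were called) that became 3 without array 5 and with each pair of arrays averaged. In the second step 3 were higher and 2 lower, or 38.5% called against 61.2% of all genes.

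Of 17 other extracellular antagonists and modulators tested, 3 were higher and 6 lower between the outer zones, 6 higher and 4 lower in the first step, and 3 higher and 7 lower in the second. These were 52.9%, 58.8% and 58.8% called, where 62.1%, 48.8% and 61.2% of all genes were. The median change between the outer zones was -0.16. Bmper, which encodes a secreted BMP-binding modulator, fell by 4.25 (SE 0.05, adjusted p = 2.78e-05), and its other probe gave -3.88. Crim1, a membrane protein with chordin-like repeats, rose by 3.19 ± 0.03 (adjusted p = 2.78e-05), with 2.34 on its other probe. Fstl1, a follistatin-like secreted glycoprotein, turned between the steps, at -3.05 ± 0.03 in the first (adjusted p = 6.52e-05) and 1.25 ± 0.03 in the second (adjusted p = 6.87e-05). Chrdl1, a chordin-like antagonist, fell in the second step on all 3 of its probes, by 2.27 (adjusted p = 6.54e-05), 0.55 and 0.79. Bmp1, the protease that cleaves chordin, rose by 1.37 ± 0.04 on its brightest probe (adjusted p = 4.09e-05) and gave -0.45 on the other, which was also called, so its direction is unsettled. Twsg1, which binds chordin and BMPs, rose in the first step by 0.99 ± 0.03 (adjusted p = 0.000113), with 0.80 and 0.02 on its other 2 probes.

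Of 12 receptors and co-receptors, 2 were higher and 5 lower between the outer zones, with a median change of -0.16. The shares called were 58.3%, 41.7% and 33.3% between the outer zones and in the first and second step, where those of all genes were 62.1%, 48.8% and 61.2%. The count of 7 between the outer zones fell to 4 with each pair of arrays averaged. Bmpr2, a type II BMP receptor, rose by 0.60 ± 0.09 (adjusted p = 0.00707), and Eng, an endothelial co-receptor, by 0.45 ± 0.11 (adjusted p = 0.0264). Eng moved in the same step as the endothelial markers above, at 0.52 ± 0.11 from the prehypertrophic to the hypertrophic zone (adjusted p = 0.0186), and the part of those cells was not tested. Rgma, a membrane-anchored BMP co-receptor, fell by 2.11 (SE 0.07) in the first step (adjusted p = 0.000134) and rose by 0.59 ± 0.07 in the second (adjusted p = 0.00337). Rgmb was lower between the outer zones on its brightest probe (-0.97 ± 0.14, adjusted p = 0.00547), with -0.31, -0.07 and -0.53 on 3 others, none called. Bmpr1a, a type I BMP receptor, fell by 0.75 in the first step (adjusted p = 0.00033), with -0.55 on its other probe. Bmpr1b was -1.24 ± 0.25 in the second step (adjusted p = 0.0289) but was well above background in only 4, 2 and 1 samples of the 3 zones. Neo1, the receptor of the Rgm proteins, changed by -0.35 ± 0.03 in the second step (adjusted p = 0.00106), while its 3 other probes gave -0.96, -0.03 and -0.02 and were not called. The first-step count of 5 receptors called (2 higher, 3 lower) fell to 2 without array 1, 2, 4 or 5 and to 3 without array 3 or with each pair of arrays averaged.

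Of 10 Smads and their regulators, 5 were higher and 1 lower between the outer zones, with a median change of 0.28. Smad7, an inhibitory Smad, rose by 2.83 ± 0.05 (adjusted p = 2.78e-05), of which 2.06 ± 0.05 fell in the first step. Skil, a nuclear Smad co-repressor, rose by 2.25 ± 0.04 (adjusted p = 2.78e-05), with 2.13 on its other probe. Ski, its relative, was -0.46 ± 0.03 (adjusted p = 0.000333), with -0.88, which was called, and 0.38, which was not, on its other probes. Smurf1, a ubiquitin ligase that targets BMP Smads, rose in the first step by 1.41 ± 0.04 (adjusted p = 9.23e-05), and its other probe gave 0.55. Smad5, a Smad phosphorylated by BMP receptors, gave -1.01 ± 0.04 in the first step on its brightest probe (adjusted p = 0.000186), -1.04 on another and 1.47 on the third, all called, so that its direction is unsettled. Smad9, another such Smad, was -0.17 ± 0.03 in the second step (adjusted p = 0.0151), while its other probe gave -0.06 and was not called. In the first step 5 genes of this list were higher and 3 lower, and in the second 6 were higher and 1 lower. The shares called were 60%, 80% and 70% between the outer zones and in both steps, against 62.1%, 48.8% and 61.2% of all genes.

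Of 11 genes known to respond to BMP signalling, 4 were higher and 4 lower between the outer zones, with a median change of 0. Smad6 and Smad7 stand in this list and in the preceding one. The Id genes, which encode inhibitors of DNA-binding transcription factors, did not move as a group. Id4 rose by 2.84 ± 0.05 (adjusted p = 2.78e-05, 2.74 on its other probe), while Id3 fell by 0.71 (SE 0.06, adjusted p = 0.00108). Id1 was lower in the second step by -0.23 ± 0.04 (adjusted p = 0.0103), and Id2 was lower in the first by -0.72 ± 0.03 (adjusted p = 0.000241), with -0.96 and -1.78 on its other probes. Id2 then rose in the second step by 0.75 ± 0.03 (adjusted p = 0.000183), with 0.73 and 1.26 on its other probes, and its change between the outer zones was 0.03 ± 0.03 (adjusted p = 0.544) on the brightest probe, with -0.23 and -0.51, both called, on the others. Dlx5, a homeobox gene of bone and cartilage, fell by 0.94 (SE 0.07, adjusted p = 0.000516). Hey1, a transcriptional repressor, fell by 0.67 in the first step (adjusted p = 0.000669) and rose by 1.81 ± 0.04 in the second (adjusted p = 7.47e-05). In the first step 3 genes of the list were higher and 4 lower, and in the second 5 were higher and 3 lower. In all, 72.7% of the list were called between the outer zones, 63.6% in the first step and 72.7% in the second, against 62.1%, 48.8% and 61.2% of all genes.

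**Figure D4:**
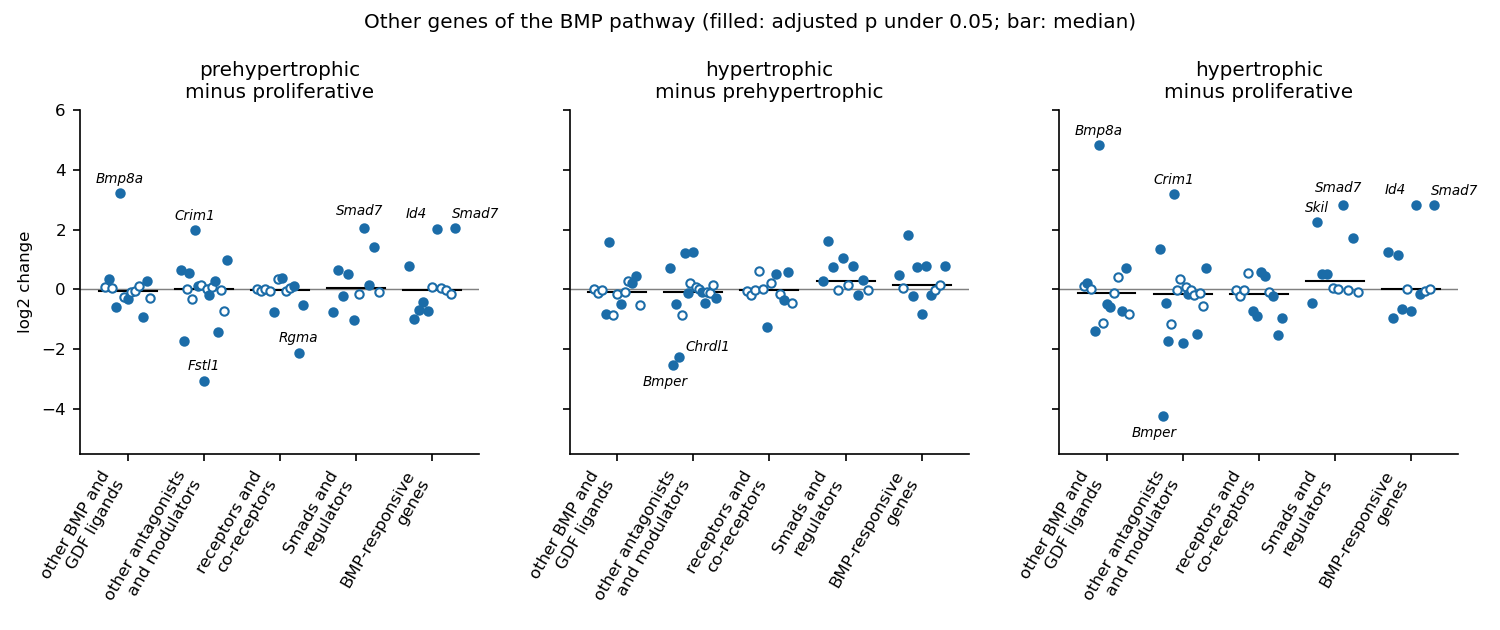
Log2 change of other genes of the BMP pathway in the 3 comparisons, by list. Each point is 1 gene by its brightest probe, filled where the adjusted p is under 0.05, the black bar is the median of the list, and called genes that changed by more than 1.9 on the log2 scale are named. Bmp8a (4.84), Crim1 (3.19), Smad7 (2.83) and Id4 (2.84) stand highest and Bmper (-4.25) lowest between the outer zones.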

How the data were processed

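The deposited scanner files hold, per the file headers, an intensity for each spot, the background-corrected and dye-normalised signal of the sample's channel. The submitters' processing notes name Agilent Feature Extraction 8.1.1.1. They also hold other values, deposited as flags of 0 or 1 per spot. These flags mark saturation, non-uniformity, a population outlier and a signal well above background, for which the headers give a multiplier of 2.6. The deposited series table of log2 values was used only to compare its sample names with the files.

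The 2 channels of each array were joined by spot, and their log2 ratio was normalised within the array by loess (limma 3.58.1, R 4.3.3). Control spots and spots flagged as non-uniform or as a population outlier had weight 0. Of 41174 probes, 40017 were well above background in at least 4 samples and were kept. The 7249 ratios with a spot flagged as non-uniform or as a population outlier were left out. Ratios were fitted by zone and dye with lmFit and eBayes, and p-values were adjusted (Benjamini-Hochberg) over 39906 tested probes. Levels are log2 signals of the loess-corrected channels, set relative to the 75th percentile of the sample. The calculation was tested on simulated data.

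Gene names came from the platform annotation (32691 probes with 1 symbol, 8483 with none, 0 with several). All members were named with every probe. Of other pathway genes, the 2 highest and 2 lowest called changes of each list in each comparison were named, a few with the values of another comparison beside them. The first-step fall of Hey1 and the value of Bmp8b were added after their values were seen. Members, lists and rules were chosen with earlier results of these data known. Same-numbered samples of different arrays deviated from their zone means with correlations of -0.25 to 0.25, against -0.31 to 0.32 for differently numbered ones. Same-numbered samples on a shared array gave 0.45 to 0.56, and differently numbered ones 0.27 to 0.32. These values do not settle if the numbers pair the samples, and the fit to array ratios has no term for the numbers. No sample was left out. Alternatives changed the scaling, the filter, the outlier spots, the dye term, the choice of probe, the array pairs, the model and the arrays included. The number of arrays limits the precision of every value.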

Additional observations from a re-analysis of the deposited data

Results flagged for a closer look

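In 39 groups of 4 samples (13 probes in 3 zones) the highest or lowest sample was set against the others by Dixon's ratio, and 3 groups passed its 95% critical value for groups of that size. Chance passes about 1 in 20 groups. Bmp4 in prehypertrophic replicate 3 was at -2.51, below the other 3 samples at -2.15 to -2.08. The dim Bmp6 probe in proliferative replicate 3 was at -1.98, above the others at -2.30 to -2.25. The bright Bambi probe in hypertrophic replicate 1 was at 3.16, above the others at 2.90 to 2.94.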

How the results depend on the processing

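Of 960 recomputed member changes, 905 kept their direction and side of the threshold, 18 lost their call, 2 gained one and 35 turned sign. Of those that turned, 33 were called neither before nor after. The 2 that were called after turning were Nog without array 3, in the second step (-0.17, range -0.17 to 0.11 over the arrays left out) and the step difference (-0.28, range -0.28 to 0.20). Over the arrays left out, the others ranged as follows. Nog ran from -0.05 to 0.17 between the outer zones and -0.10 to 0.12 in the first step. Grem1 ran from -0.23 to 1.13 between the outer zones, -0.24 to 0.79 in the first step and -0.58 to 1.29 for the step difference. The dim Bambi probe ran from -0.03 to 0.17 in the first step, -0.11 to 0.09 in the second and -0.28 to 0.12 for the step difference. Bmp4 ran from 0 to 0.25 between the outer zones, and the step difference of Gdf10 from -0.23 to 0.44. Nog also turned between the outer zones with the 75th percentile subtracted (-0.02) and the replicate block (-0.11). In the second step it turned with the 75th percentile (-0.10), no loess (-0.01), separate channels (0 after rounding) and the block (-0.25). Its step difference turned with the 75th percentile (-0.17), median centring (-0.01), no loess (-0.04), separate channels (-0.03) and the block (-0.39). The dim Bambi probe turned in the second step with the 75th percentile (-0.10), no loess (-0.01) and the block (-0.16), and between the outer zones with the block (0 after rounding). Bmp4 between the outer zones turned with each pair of arrays averaged (-0.01), and the step difference of Gdf10 with the 75th percentile (-0.08). Members called in the 3 zone comparisons numbered 6 to 7, 5 and 6 to 8 under all alternatives run. Averaging a gene's probes reduced the probes called from 22107 to 14711 between the outer zones, from 16890 to 10765 in the first step, from 21365 to 13967 in the second and from 18469 to 11814 for the step difference. That setting tests fewer features. Averaging each pair of arrays gave 9644 in the first step and 10382 for the step difference, from 3 ratios in place of 6. Leaving out 1 array gave 17343 to 20691, 11260 to 15112, 15963 to 20198 and 12890 to 17844 in the same order, and the lowest first-step count was without array 5. For the step difference, subtracting the 75th percentile gave 7852 probes higher and 12743 lower, against 9331 and 9138 after loess. Whether the replicate number pairs the samples is not settled. As a block in a fit to separate channels, this number gave 21488, 16353, 19437 and 16919 called. Without the block 23958, 18964, 23731 and 20996 were called. Against the fit to array ratios, the block lost the step-difference calls of Gdf5 (0.43) and Chrd (-0.50) and no call of a zone comparison. Against separate channels without the block it also lost those of Bmp4 in the second step (0.28) and the step difference (0.39). The normexp background setting was not run because the files hold no mean and background signals. A probe with all 6 ratios had 3 residual degrees of freedom, beside 1.21 prior degrees of freedom, so small changes are poorly resolved. This also holds for that of Bmp4, which was fitted to only 5 ratios. The cause of the differences between probes was not tested.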
